A study of Mus musculus with 27 samples.

Results

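Srebf1, Srebf2, Scap, Insig1, Insig2, Stard4, Mylip and Npc1 were followed in TAMH cells, a mouse hepatocyte line derived from transgenic mice that carry TGF-alpha, after exposure to acetaminophen (APAP) or its regioisomer AMAP, in which the ring hydroxyl group sits in the meta instead of the para position. They are 8 of the 19938 genes measured. Each was taken from the probe set (the group of array probes summarised as 1 value) annotated to that symbol alone, and all 8 had 1 such probe set. Confluent cells in serum-free medium with insulin, transferrin, selenium, dexamethasone and nicotinamide received 2 mM APAP, 2 mM AMAP or control medium, and total RNA was taken after 2, 6 or 24 h. Each of the 9 groups of treatment and time held 3 arrays, numbered 30, 31 and 32 in the labels, which gave 27 arrays. All groups share the 1 cell line, and each RNA came from the cells of a pair of dishes. The labels do not say that the 3 arrays of a group came from separate cultures, so the p-values measure the spread between these arrays, which may be technical.

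SREBP-1 (Srebf1) and SREBP-2 (Srebf2) are transcription factors made as precursors in the membrane of the endoplasmic reticulum. When sterols are scarce, the escort protein SCAP carries the precursors to the Golgi, where proteases release the part that enters the nucleus and switches on genes of fatty acid and cholesterol synthesis and of lipoprotein uptake; when sterols are plentiful, the INSIG proteins hold SCAP in the endoplasmic reticulum. In liver cells this loop balances synthesis against the cholesterol that enters through lipoprotein receptors, that NPC1 releases from lysosomes and that carriers such as STARD4 move between membranes. Mylip, also called Idol, is a ubiquitin ligase that marks lipoprotein receptors for breakdown. The arrays measured mRNA only, so neither SREBP cleavage nor protein levels were observed.

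Promoter sequences are shown for Srebf2, Insig1 and Srebf1, because Srebf1 and Srebf2 were both lower with APAP at 24 h and Insig1 separated the 2 compounds at that time. They come from RefSeq on GRCm38.p6, run 5′ to 3′ on the gene's own strand from 250 bases before the start of the transcript to 50 bases into it, and carry in capitals the matches named below. The Srebf2 promoter is chr15:82147019-82147318 on the plus strand, the Insig1 promoter is chr5:28071162-28071461 on the plus strand, and the Srebf1 promoter, the most downstream of 3 listed starts, is chr11:60210422-60210721 on the minus strand.
Srebf2: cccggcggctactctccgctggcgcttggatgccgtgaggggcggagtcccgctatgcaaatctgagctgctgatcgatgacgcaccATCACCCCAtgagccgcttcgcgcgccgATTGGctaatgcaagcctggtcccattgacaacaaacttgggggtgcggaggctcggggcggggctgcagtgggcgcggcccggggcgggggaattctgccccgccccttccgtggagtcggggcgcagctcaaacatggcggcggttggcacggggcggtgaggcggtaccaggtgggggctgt
Insig1: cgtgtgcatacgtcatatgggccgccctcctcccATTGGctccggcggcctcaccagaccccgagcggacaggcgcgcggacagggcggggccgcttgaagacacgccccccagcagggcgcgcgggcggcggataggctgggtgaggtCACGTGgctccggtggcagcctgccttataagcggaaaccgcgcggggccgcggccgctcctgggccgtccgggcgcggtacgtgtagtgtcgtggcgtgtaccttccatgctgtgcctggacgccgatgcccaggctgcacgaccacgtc
Srebf1: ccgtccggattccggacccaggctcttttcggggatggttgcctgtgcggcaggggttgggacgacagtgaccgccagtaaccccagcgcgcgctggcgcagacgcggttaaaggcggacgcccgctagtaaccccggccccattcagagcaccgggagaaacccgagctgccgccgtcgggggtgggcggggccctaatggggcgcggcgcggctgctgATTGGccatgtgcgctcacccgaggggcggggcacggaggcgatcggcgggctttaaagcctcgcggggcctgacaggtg

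The promoter table held 11 promoters for 6 of the genes, Srebf1, Srebf2, Scap, Insig1, Insig2 and Mylip, and all were searched on both strands. SREBPs are known to bind at the sterol regulatory element. An exact spelling of it, the letters ATCACCCCA followed by C, was found in none of the 11 promoters. It was found in 0.0913% of all 32851 promoters of the same length. The core of this spelling, TCACNCCAC, was also found in none of the 11, against 1.24% of all promoters. A shorter form, ATCACCCCA alone, which was added after the sequences were seen, stood in the Srebf2 promoter from position -163 relative to the start and in 0.28% of all promoters. It lies inside the longer form, so the matches overlap. The E-box CACGTG was found in 3 of the 11 promoters, those of Insig1 (from position -101) and Scap, and in 7.15% of all promoters. CCAAT, the site of the NF-Y partner factor of SREBPs, was found in 6 of the 11 promoters and in 37.4% of all promoters. The 6 belonged to Insig1, Insig2, Mylip, Srebf1 and Srebf2. It lay on the opposite strand, as ATTGG, at -135 in Srebf2, at -216 in Insig1 and at -30 in the Srebf1 promoter shown. An exact spelling of the LXR element, a direct repeat of AGGTCA with 4 bases between the copies, was found in none of the 11. It was found in 0.0152% of all promoters. Only the spellings given here were searched, so a count of none does not show that an element is absent from a promoter. These matches describe letters in a window and are not measured binding sites.

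The values are log2 signals after robust multi-array averaging (RMA), with array medians between 6.92 and 7.07, and replicate arrays of a group correlated at 0.9922 to 0.9974 across genes. The hepatocyte markers Alb, Ttr, Apoa1, Trf, Hnf4a and Fgb all lay at or above the 92.9th percentile of gene means. The biliary markers Krt7, Krt19, Sox9 and Epcam lay at the 89.9th, 78.7th, 70.6th and 31.5th. Of the macrophage and leukocyte markers, Cd68 lay at the 62.3rd, and Ptprc, Csf1r, Itgam and Adgre1 at or below the 23.4th. Of the 6 fibroblast and stellate cell markers, Vim and Dcn were also at or above the 98.5th percentile, while Col1a1, Col1a2, Acta2 and Pdgfrb lay between the 32.5th and the 55.4th, and the endothelial markers Pecam1, Kdr, Tek and Cdh5 lay at or below the 25.8th. The 3 arrays numbered 32 at 6 h stood apart on the fourth principal component, which held 7.64% of the variance, with scores of 11.1 to 18.9 against -8.41 to 5.70 on the other 24 arrays. At 24 h, APAP array 31 had the highest score on the first component (31.4), which held 22.4% of the variance.

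The 8 genes differed in brightness, with Mylip far below the others. The mean over the 27 arrays was 12.64 for Insig1, at the 99.6th percentile of gene means, 11.38 for Srebf2 and 10.60 for Srebf1. It was 10.57 for Stard4, 10.53 for Insig2, 10.21 for Scap and 9.56 for Npc1, the last at the 82.5th percentile. Mylip had a mean of 6.51, at the 36.5th percentile. Signals of different probe sets are not on a common scale per length, so this order describes brightness and not transcript number. The 9 group means spanned 1.14 on the log2 scale for Stard4, 1.04 for Insig1, 0.80 for Npc1, 0.75 for Insig2, 0.64 for Srebf1 and 0.64 for Srebf2. They spanned 0.39 for Scap and 0.24 for Mylip. The lowest group mean was that of APAP at 24 h for Srebf1, Srebf2, Insig1 and Stard4, and the highest was that of APAP at 24 h for Npc1, Scap and Insig2. Neighbours in these orders were not all separated by more than the spread of their arrays, as the values below show.

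**Figure D1:**
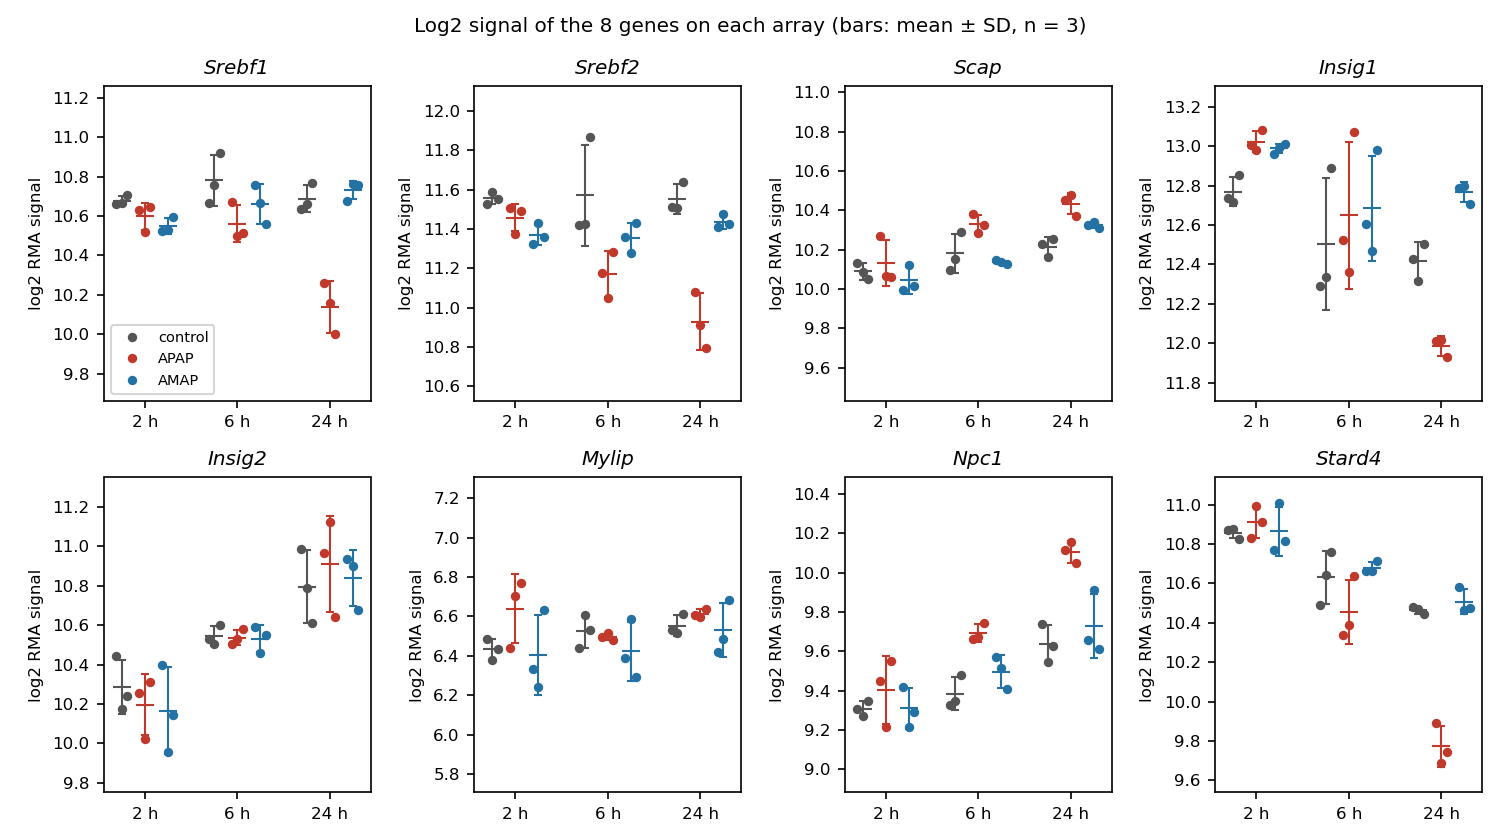
Log2 RMA signal (vertical axes, each spanning the same range) of the 8 genes on each array at 2, 6 and 24 h (horizontal axes). Points are single arrays, coloured by control medium, APAP or AMAP, and bars are the group mean ± SD (n = 3). At 24 h the APAP points lie below the control points for Srebf1, Srebf2, Insig1 and Stard4 and above them for Npc1 and Scap.

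The first comparison asked how APAP changed these genes against control medium at the same time, and it was largest at 24 h. Srebf1, Srebf2 and Stard4 fell, Npc1 and Scap rose, and Insig1, Insig2 and Mylip did not pass the test. Insig1 was nevertheless lower with APAP without overlap, as described below. A gene was called at an adjusted p under 0.05 in limma (Benjamini-Hochberg over all 19938 genes). By this rule 5 of the 8 genes were called at 24 h, against 9.33% of all genes. At 6 h only Srebf2 was called, 1 of the 8 genes against 2.5% of all genes. At 2 h none was called, against 0.682% of all genes. Mylip was the 1 gene with an unadjusted p under 0.05, a threshold for which no share of all genes is given. In RNA from bulk cultures, fewer cells of a type and less RNA per cell cannot be told apart.

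Srebf1, the gene of the SREBP that mainly drives fatty acid synthesis, gave log2 signals of 10.64, 10.66 and 10.77 in control medium at 24 h on arrays 30, 31 and 32. With APAP the same arrays gave 10.26, 10.16 and 10.00, and with AMAP 10.68, 10.76 and 10.76. All 3 APAP values lay below every other Srebf1 value of the series. The fall with APAP was -0.55 ± 0.08 on the log2 scale (SE, n = 3 per group), a 1.46-fold decrease with an adjusted p of 6.63e-05 in limma. At 6 h the control arrays read 10.66, 10.76 and 10.92 and the APAP arrays 10.67, 10.50 and 10.51, so the groups overlapped, and the difference of -0.22 ± 0.08 had an adjusted p of 0.179. At 2 h the control arrays read 10.66, 10.66 and 10.71 and the APAP arrays 10.63, 10.52 and 10.64. All 3 were lower with APAP, but the difference of -0.08 had an adjusted p of 0.848. With AMAP the 2 h arrays read 10.52, 10.53 and 10.59 and the 6 h arrays 10.76, 10.67 and 10.56.

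Srebf2, which encodes the SREBP that mainly drives cholesterol synthesis and uptake, was lower with APAP already at 6 h. The 6 h control arrays read 11.42, 11.42 and 11.87 and the APAP arrays 11.18, 11.05 and 11.28. All 3 APAP values were below the lowest control value, and the difference was -0.40 ± 0.10, with an adjusted p of 0.0202 in limma. The high control array 32 weighed on this: without it the difference was -0.25, with an adjusted p of 0.158. The call was also lost without APAP array 30 (adjusted p 0.0586) or 31 (0.13), without any 1 of the array numbers throughout (0.112 to 0.199), and with only the 6 arrays compared in the fit (0.193). After 24 h the control arrays read 11.51, 11.50 and 11.64, the APAP arrays 11.08, 10.91 and 10.79 and the AMAP arrays 11.41, 11.48 and 11.42. The 24 h fall with APAP was -0.62 ± 0.10, a 1.54-fold decrease with an adjusted p of 1.35e-04, and it was called under every alternative run. At 2 h the control arrays read 11.53, 11.59 and 11.55, the APAP arrays 11.51, 11.38 and 11.49 and the AMAP arrays 11.32, 11.43 and 11.36. AMAP at 6 h gave 11.36, 11.28 and 11.43. Srebf2 was thus below all control arrays with AMAP at 2 h and at 24 h, by -0.19 ± 0.10 and -0.11 ± 0.10, and neither difference passed the test (adjusted p 0.755 and 0.722).

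Scap, the escort of both SREBPs, differed least among the called genes. After 24 h the control arrays read 10.23, 10.16 and 10.25, the APAP arrays 10.45, 10.48 and 10.37 and the AMAP arrays 10.32, 10.34 and 10.31. With both compounds all arrays were above the control arrays, and the AMAP difference was not called. With APAP the difference from control was 0.22 ± 0.07, a 1.16-fold increase with an adjusted p of 0.0426 in limma. This call was lost with arrays centred on their medians (adjusted p 0.093), without any 1 control array at 24 h (0.0696 to 0.161), without APAP array 30 (0.108) or 31 (0.149), without any 1 array number throughout (0.07 to 0.407) and with only the arrays compared (0.138). At 6 h the APAP arrays read 10.38, 10.28 and 10.32 against 10.10, 10.15 and 10.29 in control medium and 10.15, 10.14 and 10.13 with AMAP. The highest control array lay above the lowest APAP array there. At 2 h the control arrays read 10.13, 10.09 and 10.05, the APAP arrays 10.27, 10.06 and 10.06 and the AMAP arrays 10.00, 10.12 and 10.01, with overlap throughout.

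Insig1, itself a known SREBP target, lay on opposite sides of control with the 2 compounds at 24 h, and neither difference from control passed the test. The control arrays read 12.43, 12.32 and 12.50, the APAP arrays 12.01, 12.02 and 11.93 and the AMAP arrays 12.79, 12.80 and 12.71. The 3 groups did not overlap. APAP differed from control by -0.43 ± 0.14, with an adjusted p of 0.0605, and AMAP by 0.35 ± 0.14 (95% interval 0.05 to 0.65), with an adjusted p of 0.335. The APAP difference passed under 8 of the 19 alternatives. With the array number as a fixed replicate block its adjusted p in limma was 0.0223, and as a random block 0.0438. With only the arrays compared in the fit it was 0.0205. The main fit used 1 estimate of the spread over all 9 groups. The SD of Insig1 was 0.049 to 0.095 in the groups at 24 h and 0.265 to 0.373 in those at 6 h. At 2 h both compounds lay above all control arrays (12.74, 12.72 and 12.85), with 13.01, 12.98 and 13.08 for APAP and 12.96, 12.99 and 13.01 for AMAP. These differences of 0.25 ± 0.14 and 0.22 ± 0.14 had adjusted p of 0.636 and 0.873. The effect of APAP changed by -0.68 ± 0.20 from 2 h to 24 h, with an adjusted p of 0.167 in limma. This change was called with only the arrays compared (0.00908), with array weights (0.0385) and without number 32 throughout (0.0491).

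The 6 h values of Insig1 carried a large difference between array numbers. Array 32 read 12.89 in control medium, 13.07 with APAP and 12.98 with AMAP, while arrays 30 and 31 read 12.29 and 12.33, 12.52 and 12.36, and 12.60 and 12.47. Array 32 was thus above arrays 30 and 31 in all 3 treatments. These are the arrays that stood apart on the fourth principal component, and what they share beyond the number and the time was not tested. The residual SD of Insig1 over all groups, 0.196, was the highest of the 8 genes. At 24 h the difference between APAP and AMAP was -0.78 within number 30, -0.78 within number 31 and -0.78 within number 32.

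**Figure D2:**
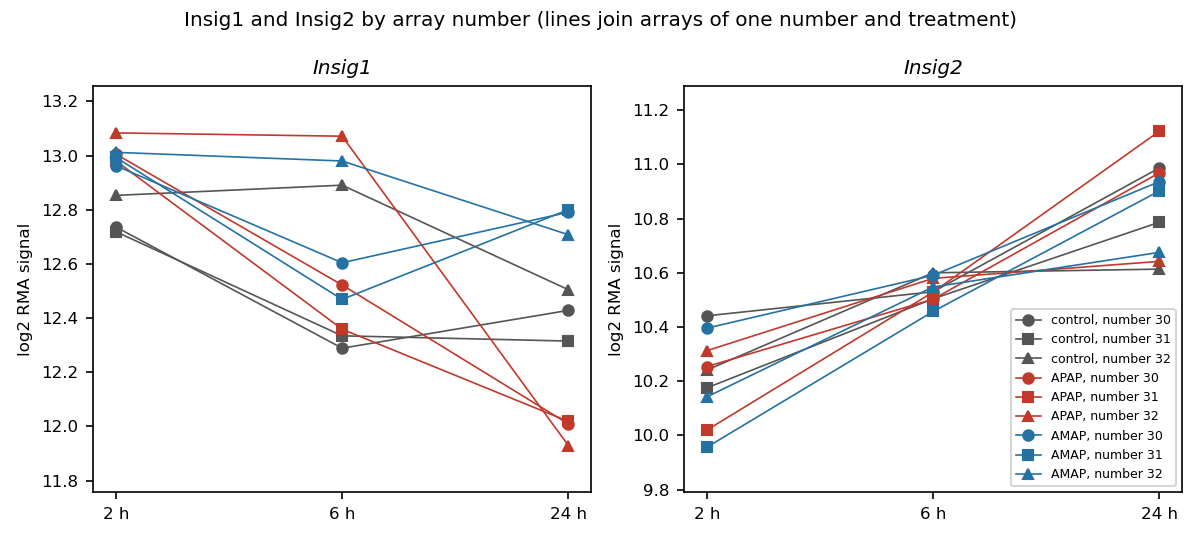
Log2 RMA signal of Insig1 and Insig2 (vertical axes) at 2, 6 and 24 h (horizontal axes), with colours for treatment and marker shapes for array number; the labels do not say that the joined arrays share a culture. At 6 h the 3 arrays numbered 32 lie at 12.89 to 13.07 for Insig1 and the other 6 at 12.29 to 12.60, and Insig2 is higher at 24 h than at 2 h in each treatment.

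Insig2, the second retention protein, was higher at 24 h than at 2 h in every treatment and overlapped between treatments. In control medium it read 10.44, 10.18 and 10.24 at 2 h, 10.53, 10.50 and 10.60 at 6 h and 10.99, 10.79 and 10.61 at 24 h. The APAP arrays read 10.25, 10.02 and 10.31, then 10.50, 10.53 and 10.58, then 10.97, 11.12 and 10.64. The AMAP arrays read 10.40, 9.96 and 10.14, then 10.59, 10.46 and 10.55, then 10.94, 10.90 and 10.68. The lowest 24 h array of each treatment was above its highest 2 h array. At 24 h APAP differed from control by 0.12 ± 0.12 (95% interval -0.13 to 0.36).

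Stard4, a soluble sterol carrier and known SREBP-2 target, showed the largest fall of the 8 genes with APAP at 24 h. The control arrays read 10.48, 10.47 and 10.45, the APAP arrays 9.89, 9.69 and 9.74 and the AMAP arrays 10.58, 10.46 and 10.48. All 3 APAP values were the lowest of the series. The fall was -0.69 ± 0.08, a 1.61-fold decrease with an adjusted p of 7.81e-06 in limma. At 6 h the control arrays read 10.49, 10.64 and 10.76, the APAP arrays 10.34, 10.39 and 10.64 and the AMAP arrays 10.66, 10.66 and 10.71. The APAP and control groups overlapped at 6 h, with a difference of -0.18 ± 0.08 and an adjusted p of 0.399. At 2 h the groups also overlapped, at 10.87, 10.88 and 10.83 for control, 10.83, 10.99 and 10.91 for APAP and 10.77, 11.01 and 10.82 for AMAP. The effect of APAP was more negative at 24 h than at 2 h by -0.75 ± 0.12 (adjusted p 0.00247 in limma), and Stard4 was the 1 gene of the 8 called for this change in effect, against 0.356% of all genes. This call was lost when any 1 array number was left out throughout (adjusted p 0.0631 to 0.253). For Srebf1 the change in the APAP effect over the same times was -0.47 ± 0.11, with an adjusted p of 0.0581, and it was called with the array number as a replicate block, fixed (0.0445) or random (0.0468). For AMAP the change in the effect on Stard4 from 2 h to 24 h was 0.04 ± 0.12.

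Npc1, which exports cholesterol from lysosomes, rose with APAP. The 24 h control arrays read 9.74, 9.54 and 9.63, the APAP arrays 10.11, 10.15 and 10.05 and the AMAP arrays 9.66, 9.91 and 9.61. Every APAP array was above every other Npc1 value of the series. The rise was 0.47 ± 0.09, a 1.38-fold increase with an adjusted p of 0.0012 in limma. At 6 h the APAP arrays (9.66, 9.67 and 9.74) were all above the control arrays (9.33, 9.34 and 9.48) and the AMAP arrays (9.57, 9.51 and 9.41). The 6 h difference from control was 0.31 ± 0.09, with an adjusted p of 0.062, and it passed under 4 alternatives (0.0298 to 0.0486). At 2 h the groups overlapped, at 9.31, 9.27 and 9.35 for control, 9.45, 9.21 and 9.55 for APAP and 9.42, 9.22 and 9.29 for AMAP.

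Mylip was dim and no difference was called. In control medium it read 6.49, 6.38 and 6.44 at 2 h, 6.44, 6.61 and 6.53 at 6 h and 6.53, 6.52 and 6.61 at 24 h. With APAP the values were 6.44, 6.71 and 6.77, then 6.49, 6.52 and 6.48, then 6.61, 6.60 and 6.64. With AMAP they were 6.33, 6.24 and 6.63, then 6.39, 6.59 and 6.29, then 6.42, 6.48 and 6.68. All groups compared between treatments overlapped. At 24 h the difference between APAP and control was 0.06 ± 0.10 (95% interval -0.14 to 0.26).

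Against control medium, AMAP at the same dose called none of the 8 genes in limma at any time. The share of all genes called with AMAP was 0.181% at 2 h, 0.456% at 6 h and 0.727% at 24 h. At an unadjusted p under 0.05 the counts were 0 at 2 h, 1 at 6 h (Srebf2) and 1 at 24 h (Insig1). The shares above are for adjusted p, so these counts have no share of all genes to be read against. At 24 h the AMAP difference from control was 0.04 ± 0.08 for Srebf1, 0.04 ± 0.08 for Stard4 and 0.09 ± 0.09 for Npc1. The 95% intervals of these 3 ran from -0.12 to 0.21, from -0.13 to 0.22 and from -0.09 to 0.27.

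Set directly against each other at 2 mM, the regioisomers separated at 24 h. Srebf1, Srebf2, Insig1 and Stard4 were lower and Npc1 was higher with APAP than with AMAP, 5 of the 8 genes against 4.65% of all genes. At 2 h and 6 h none of the 8 was called, against 0.261% and 0.707% of all genes. At an unadjusted p under 0.05, for which no share of all genes is given, the counts were 1 and 3. The 24 h differences were -0.59 ± 0.08 for Srebf1 (adjusted p 2.77e-05), -0.73 ± 0.08 for Stard4 (3.11e-06) and -0.51 ± 0.10 for Srebf2 (0.00164). For Insig1 the difference was -0.78 ± 0.14, a 1.72-fold lower signal with APAP (adjusted p 0.00138), and for Npc1 it was 0.38 ± 0.09 (0.0117). Both comparisons at 24 h share the APAP arrays, so they are not separate observations of APAP. The Srebf1 and Stard4 calls held under every alternative run. Without number 30 throughout, Insig1 had an adjusted p of 0.0871 and Npc1 of 0.28, which left 3 genes called; without number 31 Srebf2 had 0.0678. Npc1 was also lost without number 32 (0.113), without AMAP array 30 (0.0668) or 32 (0.0778) and with only the arrays compared (0.105). For the genes not called at 24 h, the 95% intervals of APAP minus AMAP were -0.03 to 0.25 for Scap, -0.17 to 0.32 for Insig2 and -0.11 to 0.29 for Mylip. At 2 h the 8 differences lay between 0.03 and 0.24, and at 6 h between -0.22 and 0.20, and their intervals do not show that the compounds act alike there.

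**Figure D3:**
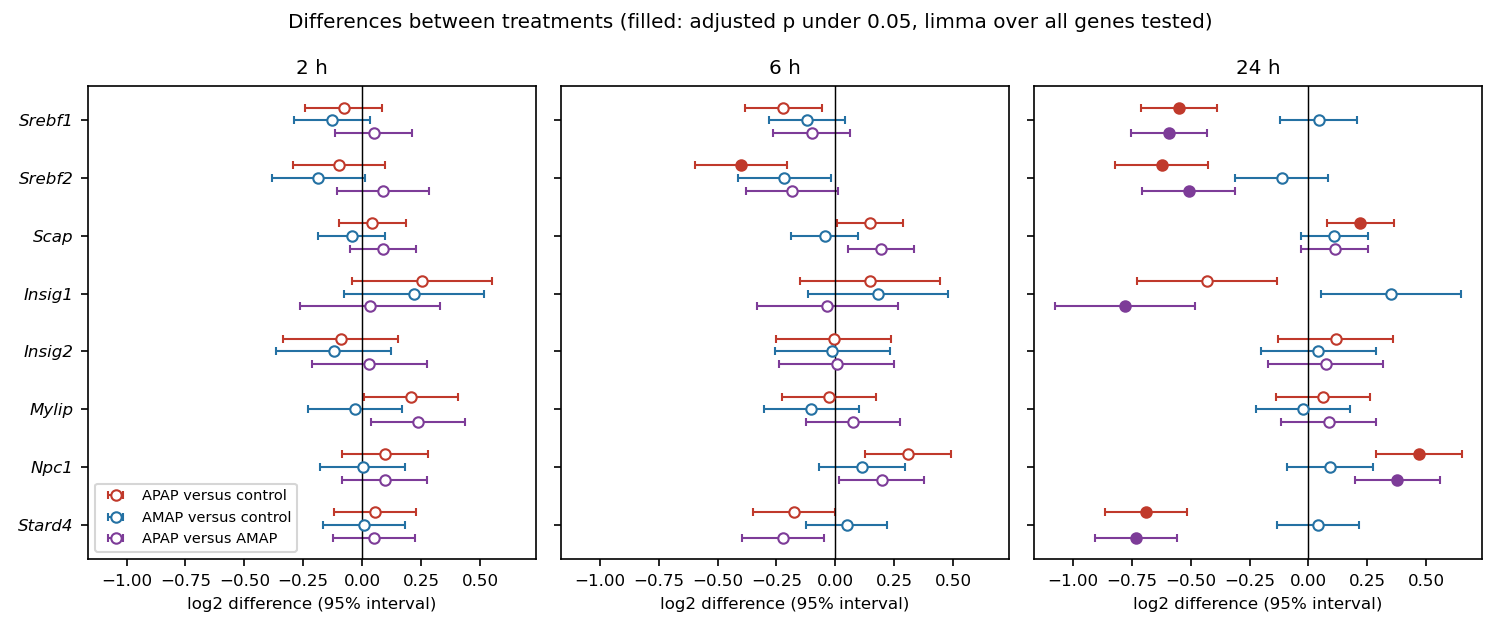
Log2 difference with its 95% interval (horizontal axes) for each of the 8 genes (vertical axis) at 2, 6 and 24 h, for APAP against control, AMAP against control and APAP against AMAP. Filled points passed an adjusted p under 0.05 in limma. Filled points are absent at 2 h, there is 1 at 6 h (Srebf2) and 10 at 24 h, none of them for AMAP against control.

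Markers of biliary cells read lower with both compounds at 6 h and 24 h. The mean log2 signal of Krt19, Krt7, Epcam and Sox9, all 4 of them measured, lay at 6 h between 8.91 and 8.98 on the control arrays, between 8.57 and 8.81 on the APAP arrays and between 8.35 and 8.77 on the AMAP arrays. After 24 h it lay between 8.66 and 8.80 on the control arrays, between 7.93 and 8.36 on the APAP arrays and between 7.82 and 8.46 on the AMAP arrays. None of the 4 was called at 6 h with either compound, against 2.5% of all genes for APAP and 0.456% for AMAP. At 24 h with APAP 1 of the 4 was called lower, against 5.97% of all genes, and with AMAP 0 of the 4, against 0.727% of all genes called either way, with median differences of -0.51 and -0.65. The part of these differences in the results for the 8 genes at 6 h and 24 h was not tested. Of the 6 hepatocyte markers none was called at 24 h with either compound, against 9.33% of all genes for APAP and 0.727% for AMAP. The fibroblast and stellate cell mean at 24 h lay between 8.64 and 8.75 with AMAP, below 8.80 to 8.93 in control medium. At 2 h the endothelial mean lay between 5.94 and 6.01 with APAP, above 5.85 to 5.90 in control medium. The mean of the macrophage and leukocyte markers Ptprc, Adgre1, Cd68, Csf1r and Itgam then lay between 6.10 and 6.12 with APAP, above 5.92 to 6.08 in control medium. Array signals have no true zero, so no marker is given as absent.

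Culture time in control medium was compared apart from the compounds. From 2 h to 24 h Insig2 rose by 0.51 ± 0.12 (adjusted p 0.0315 in limma) and Stard4 fell by 0.39 ± 0.08 (adjusted p 0.0227), 2 of the 8 genes against 1.14% of all genes. The 24 h arrays lay wholly above the 2 h arrays for Insig2 and wholly below them for Stard4. Npc1 differed by 0.33 ± 0.09 (adjusted p 0.0641, and 0.0483 with a fixed replicate block) and Insig1 by -0.35 ± 0.14 (0.249), also without overlap. Between 2 h and 6 h and between 6 h and 24 h none was called, against 0.707% and 0.015% of all genes. In each, 2 genes had an unadjusted p under 0.05, for which no share of all genes is given. The 24 h calls were fragile: leaving out any 1 array of the 6 ended the Stard4 call (adjusted p 0.0508 to 0.0993). The Insig2 call ended without control array 30 or 31 at 24 h or 31 or 32 at 2 h (0.0788 to 0.224), and with only the arrays compared (0.074). Both ended when every probe set was tested, or when any 1 number was left out throughout. Srebf1, Srebf2 and Scap moved by 0.01, -0.01 and 0.12 over the same time, while the pathway lists described below had 1 gene called between control times, the phosphatidate phosphatase Lpin1, lower at 6 h than at 2 h by -0.46 ± 0.11 (adjusted p 0.038); this call was lost under 10 of 19 alternatives (0.0503 to 0.564), among them any 1 number left out, and control arrays 30 or 32 at 2 h or 30 or 31 at 6 h left out.

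The other genes of the pathway were read from 6 lists, of which 75 of 86 genes were matched to a single-symbol probe set. Among genes that act on SREBP processing, 1 of 10 was higher and none lower with APAP at 24 h, against 3.36% and 5.97% of all genes, with a median difference of -0.01. This was Paqr3, a Golgi protein that tethers SCAP, which rose by 0.54 ± 0.09 at 2 h, 0.54 ± 0.09 at 6 h and 0.33 ± 0.09 at 24 h with APAP (adjusted p 0.00113, 7.67e-04 and 0.0186 in limma) and by 0.51 ± 0.09 at 6 h with AMAP (0.00696). Without number 30 throughout, Paqr3 was not called in any of these 4 comparisons (adjusted p 0.0542 to 0.357). Without number 31 it was not called with APAP at 2 h (0.0802) and 24 h (0.115) or with AMAP at 6 h (0.272), and with only the arrays compared it was lost at 24 h (0.0544) and with AMAP (0.174). Single arrays also ended its call, namely APAP array 30 (0.0952) or control array 30 (0.0867) at 24 h, and AMAP array 30 or 31 or control array 30 at 6 h in the AMAP comparison (0.0505 to 0.0581). Among 8 lipoprotein uptake genes, 1 was higher and 1 lower with APAP at 24 h, against the same 3.36% and 5.97% of all genes, with a median of 0.08. The receptor chaperone Lrpap1 rose by 0.50 ± 0.07 (adjusted p 9.15e-05) and the lipoprotein receptor Lrp8 changed by -0.52 ± 0.10 (0.00162). Lrpap1 also rose with APAP at 6 h (0.32 ± 0.07) and with AMAP at 24 h (0.44 ± 0.07), and its difference between APAP and AMAP was not called at 24 h. The 24 h rise of Lrpap1 with APAP was called under every alternative run. The other 2 Lrpap1 calls were lost without any 1 number throughout (adjusted p 0.0768 to 0.489 for APAP at 6 h and 0.055 to 0.179 for AMAP at 24 h) and with only the arrays compared (0.144 and 0.0515). The 6 h call was also lost without APAP array 30 or 32 or control array 30 or 31 (0.075 to 0.1). The Lrp8 call was lost without number 30 (0.0913) or without number 31 (0.0517).

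Among 15 genes of intracellular sterol transfer, none was higher and 2 were lower with APAP at 24 h, against 3.36% and 5.97% of all genes, with a median of 0.08. Gramd1b, which carries cholesterol from the plasma membrane to the endoplasmic reticulum, changed by -0.34 ± 0.08 at 2 h, -0.52 ± 0.08 at 6 h and -0.67 ± 0.08 at 24 h (adjusted p 0.0398, 3.99e-04 and 5.34e-06 in limma). Tmem97, a sterol-regulated membrane protein that binds NPC1, changed by -0.40 ± 0.07 at 24 h (7.41e-04). The 2 h call of Gramd1b was lost under 12 of 19 alternatives, among them quantile normalization (0.0976), all probe sets tested (0.053), only the arrays compared (0.106) and leaving out any 1 number (0.101 to 0.571) or any 1 of the 6 arrays (0.0644 to 0.304). Its 6 h call was lost without number 30 (0.0542), and its 24 h call under none. In Stard4 and Npc1, the transfer genes described above, the 24 h changes with APAP thus ran in opposite directions. Without number 30 the Tmem97 call was lost (0.0648), which left 1 of the 15 lower with APAP than with control. Of 8 genes of the LXR and efflux list, none was called with either compound at 24 h. The shares of all genes called were 9.33% for APAP and 0.727% for AMAP, so a count of none in a list this short is near them. The list medians were -0.02 for APAP and 0.11 for AMAP.

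The enzymes downstream of the SREBPs gave the widest shift. Of 17 sterol synthesis genes, 14 were lower and 1 higher with APAP at 24 h, against 5.97% and 3.36% of all genes, with a median of -0.65 against 0.02 over all genes tested. The 3 with the smallest p were Fdps (-0.74 ± 0.08, adjusted p 7.58e-07), Nsdhl (-0.68 ± 0.09, 1.07e-05) and Fdft1 (-0.84 ± 0.12, 6.81e-05), which act in the isoprenoid and later sterol steps. Tm7sf2, a sterol reductase, rose instead, by 0.32 ± 0.10 with APAP (0.0311) and by 0.69 ± 0.10 with AMAP (8.11e-04). The Tm7sf2 call with APAP was lost under 10 of 19 alternatives (adjusted p 0.0539 to 0.308), among them centring on array medians, number 30 or 31 left out, APAP array 30 or 31 left out and any 1 control array left out; the call with AMAP was lost without number 31 (0.0915). With AMAP it was the 1 sterol synthesis gene called at 24 h, against 0.727% of all genes, and the median of the list was 0.12. Of 17 SREBP-1 fatty acid targets, 10 were lower and none higher with APAP, with a median of -0.34. Elovl6 changed by -0.83 ± 0.13 (adjusted p 1.92e-04), Scd2 by -0.52 ± 0.09 (2.48e-04) and Scd1 by -0.63 ± 0.11 (4.26e-04); they lengthen or desaturate fatty acids. With AMAP 1 of the 17 was called, against 0.727% of all genes. This was Acss2, which makes acetyl-CoA from acetate and rose by 0.86 ± 0.18 (0.0208). That call was lost with all probe sets tested (0.0751), without number 30 (0.307) or 31 (0.231), and without AMAP array 30 (0.0924) or 31 (0.104) or control array 31 (0.0534) or 32 (0.146). These lists were chosen with earlier results known, so their direction is not independent evidence.

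Between the compounds at 24 h, 16 of the 17 sterol synthesis genes and 11 of the 17 fatty acid targets were lower with APAP than with AMAP, against 2.78% of all genes, with medians of -0.75 and -0.53 against 0.02 over all genes tested. Neither list had a gene called at 2 h or 6 h in any comparison of treatments, where 0.181% to 2.5% of all genes were called. The effect of APAP was called more negative at 24 h than at 2 h for 5 of the sterol synthesis genes and 3 of the fatty acid targets, against 0.186% of all genes. These 2 list counts are not given under the alternatives. Over all genes, the calls for this change in effect either way, 71 in the main fit, fell to between 0 and 32 when 1 number was left out throughout. The counts at 24 h depended on the arrays. Without number 30, the sterol synthesis count against control was 9 and the fatty acid count 3; without number 31 they were 6 and 6. Without APAP array 32 or control array 30 at 24 h the fatty acid count was 6, and without control array 31 it was 5. Against AMAP, the sterol synthesis count was 8 without number 30, and the fatty acid count was 6 without number 30 or 31.

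**Figure D4:**
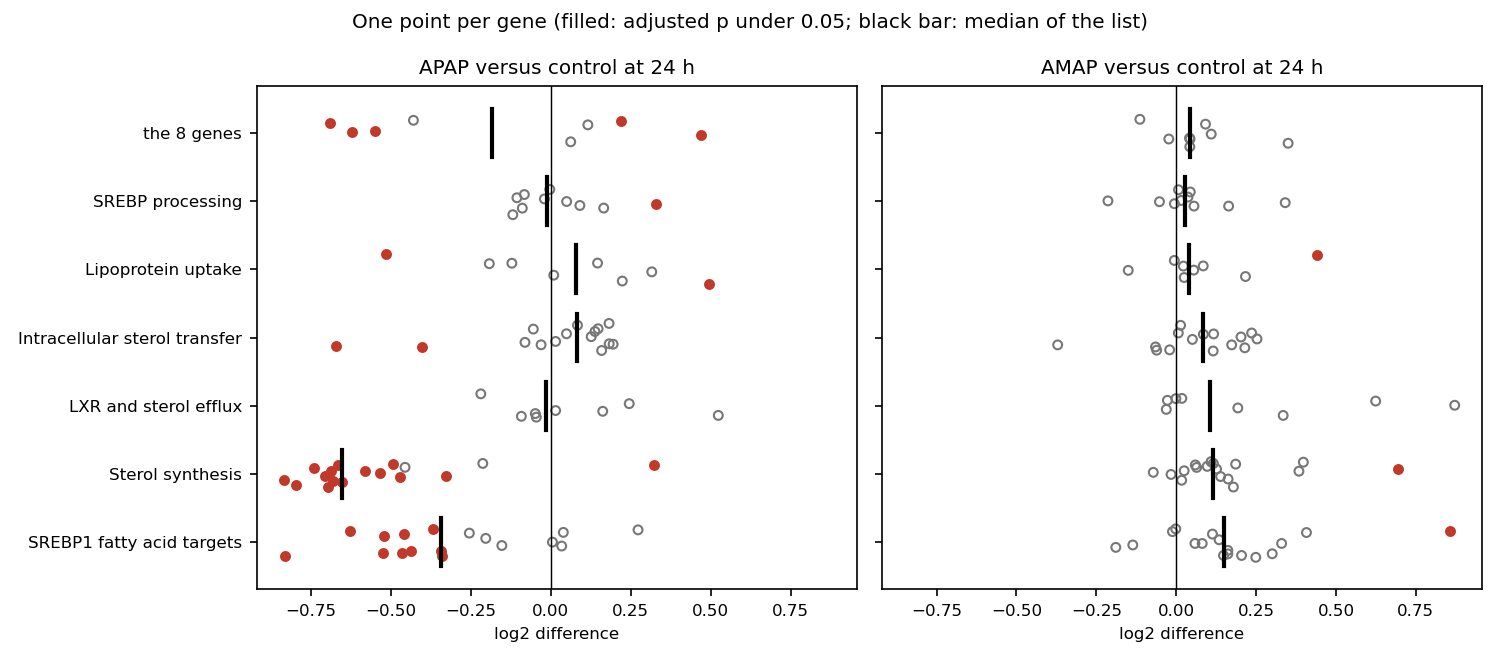
Log2 difference from control at 24 h (horizontal axes) for APAP and for AMAP, with 1 point per gene in the 8 genes and the 6 pathway lists (vertical axis); filled points passed an adjusted p under 0.05 in limma and black bars are list medians. With APAP the medians of the sterol synthesis and fatty acid lists lie at -0.65 and -0.34, and with AMAP at 0.12 and 0.15.

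The genes whose pattern over the 9 group means was most like that of a called gene were found by Pearson correlation among 14729 genes with a mean log2 signal of at least 6. For Srebf1 they were 2610001J05Rik (0.981), Ryk and Cldn3, and for Srebf2 they were Arpin (0.971), Vars and Map2k6. For Insig1 they were Pank3 (0.983), Oard1 and Stard7, and for Stard4 they were Ide (0.988), Aldoc and Lipt2. For Npc1 they were Mdm4 (0.981), Cox6c and Fam8a1, and for Scap they were Snord55 (0.986), Hmg20b and Chid1. None of the 8 genes was among the 3 most alike to another of them. The 9 means share their arrays and normalization, and these values describe likeness only.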

How the data were processed

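Total RNA of TAMH cells was hybridised to Affymetrix Mouse Gene 1.0 ST arrays, and the authors deposited 1 log2 value per probe set and array, made with RMA in Affymetrix Expression Console 1.1 per the submitters' processing notes. The values run from 1.335 to 15.18, from which base 2 was taken, and no genome build is named in the sources used here. Of 35557 probe sets, 21789 carried 1 gene symbol, 1621 several and 12147 none in the platform annotation. For the 999 genes with more than 1 probe set the one with the highest mean was used, which left 19938 genes, with no filter and no further normalization. The number of arrays limits the precision (median SE of a difference 0.0986).

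A model of 9 group means over all 27 arrays was fitted with limma 3.58.1 in R 4.3.3 (lmFit and eBayes, 18 residual degrees of freedom, prior 7.3), with 18 contrasts, two-sided tests and Benjamini-Hochberg adjustment over all genes in each contrast. The script was tested on simulated data with 200 changed genes. The members and lists were chosen with earlier results of these data known. All 8 genes were named whatever their values, and from each list up to 3 called genes with the smallest p in a comparison. Alternatives were other normalizations, variance models and probe set rules, the array number as a block, and leaving out arrays; leaving out single arrays was added after seeing the data.

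Same-numbered arrays deviated together (correlation of deviations over 0.1 for every number) in 5 of the 9 treatment comparisons: APAP against control at 2 h and 6 h, AMAP against control at 6 h, and APAP against AMAP at 6 h and 24 h. In those 5 the array number as a fixed block changed no call among the 8 genes, and it moved the count of all genes called from 136 to 214 for APAP at 2 h and from 91 to 200 for AMAP at 6 h. The pairing comes from the data, since the labels do not say what the numbers mark.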

Additional observations from a re-analysis of the deposited data

Results flagged for a closer look

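The effect of APAP on Stard4 differed between times. It was 0.05 ± 0.08 on the log2 scale at 2 h (SE, n = 3 arrays per group) and -0.69 ± 0.08 at 24 h, and the difference between these effects was -0.75 ± 0.12, with an adjusted p of 0.00247 in limma. At 24 h the APAP arrays were lower in 3 of 3 numbers. The size of this difference ranged from -0.84 to -0.67 when 1 array number was left out throughout, and the adjusted p then rose to 0.0631 or more.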

How the results depend on the processing

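No difference of the 8 genes that was called changed sign under any alternative. In 14 of the 18 contrasts, among them APAP against control at 2 h and 24 h and all 3 of AMAP against control, the number of the 8 genes called stayed within 1.5 times the main count. Among these 14, only APAP against control at 24 h had any of the 8 genes called in the main fit (5). In the others the count was 0 in the main fit and under every alternative. For APAP against control at 6 h the count of 1 became 2 with quantile normalization, an intensity trend in the variance prior, array weights or a minimum mean of 6, and 0 with only the arrays compared; leaving out a number or an array gave 0 to 1. For APAP against AMAP at 24 h the count of 5 ranged from 3 to 5 over the left-out numbers and arrays. For control at 24 h against 2 h the count of 2 became 0 with all probe sets tested and 1 with only the arrays compared. It ranged from 0 to 1 over left-out numbers and arrays. It became 3, with Npc1 added, under the fixed replicate block, quantile normalization, the trend, array weights or the minimum mean. For the change in the APAP effect from 2 h to 24 h the count of 1 became 2 with the replicate block (fixed or random), the trend, the minimum mean or only the arrays compared, and 3 with array weights, and ranged from 0 to 2 over left-out numbers and arrays. The cause was not tested, except that leaving out numbers or arrays leaves fewer samples. Over all genes, the count for APAP against control at 24 h was 1860 in the main fit. It ranged from 449 to 1871 when a number or a single array was left out. Before that, over the other settings, among them the fit with only the arrays compared, it ranged from 957 to 3043. For APAP against AMAP at 24 h the main count was 928. It ranged from 195 to 809 when a number or a single array was left out, and from 314 to 1501 over the other settings. Beside the 5 comparisons in which numbers deviated together, 23 of the 27 arrays correlated best with their own number, as a hint from the data; the fixed block raised the count of all genes called from 145 to 345 for AMAP against control at 24 h and called Insig1 for APAP at 24 h (adjusted p 0.0223), Npc1 for control at 24 h against 2 h (0.0483) and Srebf1 for the change in the APAP effect from 2 h to 24 h (0.0445). The consensus correlation was 0.0408. Detection calls and scanner files were not analysed here, so no floor was set for Mylip.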
